A study of Mus musculus with 10 samples.

Results

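The neuropeptides and granins described here are 10 genes: the granins Chga, Chgb and Scg2, the granin-like chaperone Scg5, the opioid precursors Penk and Pdyn, the peptide precursors Trh, Cck and Tac1, and the processing enzyme Cpe. Each was read by every probe set, meaning the short probes designed together for 1 transcript, that the platform annotation assigns to that gene alone. The 10 genes, of 8252 named on the array, had 16 of its 12488 probe sets. Of these genes, 5 had 1 probe set and 5 had several, and 13 of the 16 probe sets passed the filter on dim signals and were tested.

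Hippocampal total RNA came from male C57BL/6 mice aged 30 months, 5 under long-term calorie restriction and 5 on a control diet, with 1 mouse per Affymetrix array. The labels give no genotype, drug or other treatment that separates the mice, and the sources used here do not give the degree or the start of the restriction. The tissue was measured whole, so fewer cells of a type and less RNA per cell cannot be told apart. Of the marker genes listed for the hippocampus, 7 of 11 for pyramidal neurons and 3 of 10 for dentate granule cells were tested, Neurod6, Wfs1, Camk2a and Calb1 among them.

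Neuropeptides are made as longer precursors that enter the regulated secretory pathway, are packed into dense-core vesicles with the help of granins, and are cut at basic residues before release. In that pathway Scg5 chaperones the convertase that makes many of the cuts, and Cpe then trims the basic residues left at the end of each fragment. In the hippocampus dynorphins from Pdyn are known from the mossy fibres of dentate granule cells, while Cck marks a class of basket interneurons and is also made in pyramidal neurons. Several of these genes are classical targets of cAMP and of neuronal activity through the transcription factor CREB.

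RefSeq start sites were available for 8 of the 10 genes on build GRCm38.p6, all but Penk and Cpe. The window from 250 bases before to 50 bases after the start was searched for the palindrome TGACGTCA, the cAMP response element bound by CREB, and for its 5-base core TGACG on either strand, which the palindrome contains. The palindrome was in 2 of the 8 genes, Chgb and Scg2, and in 1.79% of all 32851 windows. The core was in 7 of the 8, all but Pdyn, and in 20.8% of all windows. The 100 bases before the start are printed for the precursors and granins with a match there, and for Pdyn as a gene without one, so that the promoters of the member that rose, of those that fell and of those that did not pass can be set side by side. Capitals mark the palindrome or, where there is none, the core, and each line reads 5′ to 3′ towards the start site. The stretches lie at chr2:132781542-132781641 (plus strand) for Chgb, chr1:79440027-79440126 (minus strand) for Scg2, chr12:102554841-102554940 (plus strand) for Chga, chr6:92244651-92244750 (minus strand) for Trh, chr9:121495695-121495794 (minus strand) for Cck, chr6:7554961-7555060 (plus strand) for Tac1 and chr2:129699939-129700038 (minus strand) for Pdyn, whose more upstream start of 2 is shown.
Chgb: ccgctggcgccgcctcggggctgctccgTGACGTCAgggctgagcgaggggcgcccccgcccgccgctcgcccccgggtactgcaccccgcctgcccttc
Scg2: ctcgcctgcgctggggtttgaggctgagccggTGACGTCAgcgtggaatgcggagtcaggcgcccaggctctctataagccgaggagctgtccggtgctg
Chga: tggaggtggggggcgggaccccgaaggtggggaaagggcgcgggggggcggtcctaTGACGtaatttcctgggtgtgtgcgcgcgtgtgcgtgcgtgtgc
Trh: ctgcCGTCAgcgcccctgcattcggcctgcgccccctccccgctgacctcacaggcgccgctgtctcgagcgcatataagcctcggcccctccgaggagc
Cck: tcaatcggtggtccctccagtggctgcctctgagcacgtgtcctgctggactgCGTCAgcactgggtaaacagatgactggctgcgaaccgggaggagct
Tac1: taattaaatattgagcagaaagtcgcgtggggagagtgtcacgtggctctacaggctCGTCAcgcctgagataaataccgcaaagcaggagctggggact
Pdyn: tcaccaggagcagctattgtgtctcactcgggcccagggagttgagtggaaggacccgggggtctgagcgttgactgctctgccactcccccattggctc
A match is a run of letters, not a measured binding site. The palindrome of Chgb begins 72 bases and that of Scg2 68 bases before the start. In the comparison of diets Chgb passed the test and Scg2 did not. The genes that fell, Trh and Pdyn, lacked the palindrome in these windows, as did most of the 8.

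In the comparison of diets, Chgb was higher in calorie restricted mice and Trh and Pdyn were lower; the other tested members did not pass. The threshold was a limma p under 0.05 after Benjamini-Hochberg adjustment over all 7453 tested probe sets. Of the 13 tested member probe sets 1 rose, 2 fell and 10 did not pass, against 4.11% higher and 7.74% lower, or 11.8% in all, among the 7453. The balance among the 7453 depended on scaling: 306 rose and 577 fell as deposited, against 575 and 266 with arrays centred on their median and 321 and 282 under quantile normalization. At an unadjusted p under 0.05 there were 7 member probe sets, against 31.6% of all. The diets did not overlap in 2 members, both lower, against 14.3% of all, with 4.96% higher and 9.35% lower. The members' share of 23.1% rests on 3 calls, and the count ran from 0 to 5 over the alternatives tried. Changes are log2 differences of calorie restricted minus control mice with the standard error (SE) of the fit. Their median was -0.15 over all tested probe sets and 0.15 over the tested members, so values relative to the median change are 0.15 higher than those fitted. The p-values test the fitted values.

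**Figure D1:**
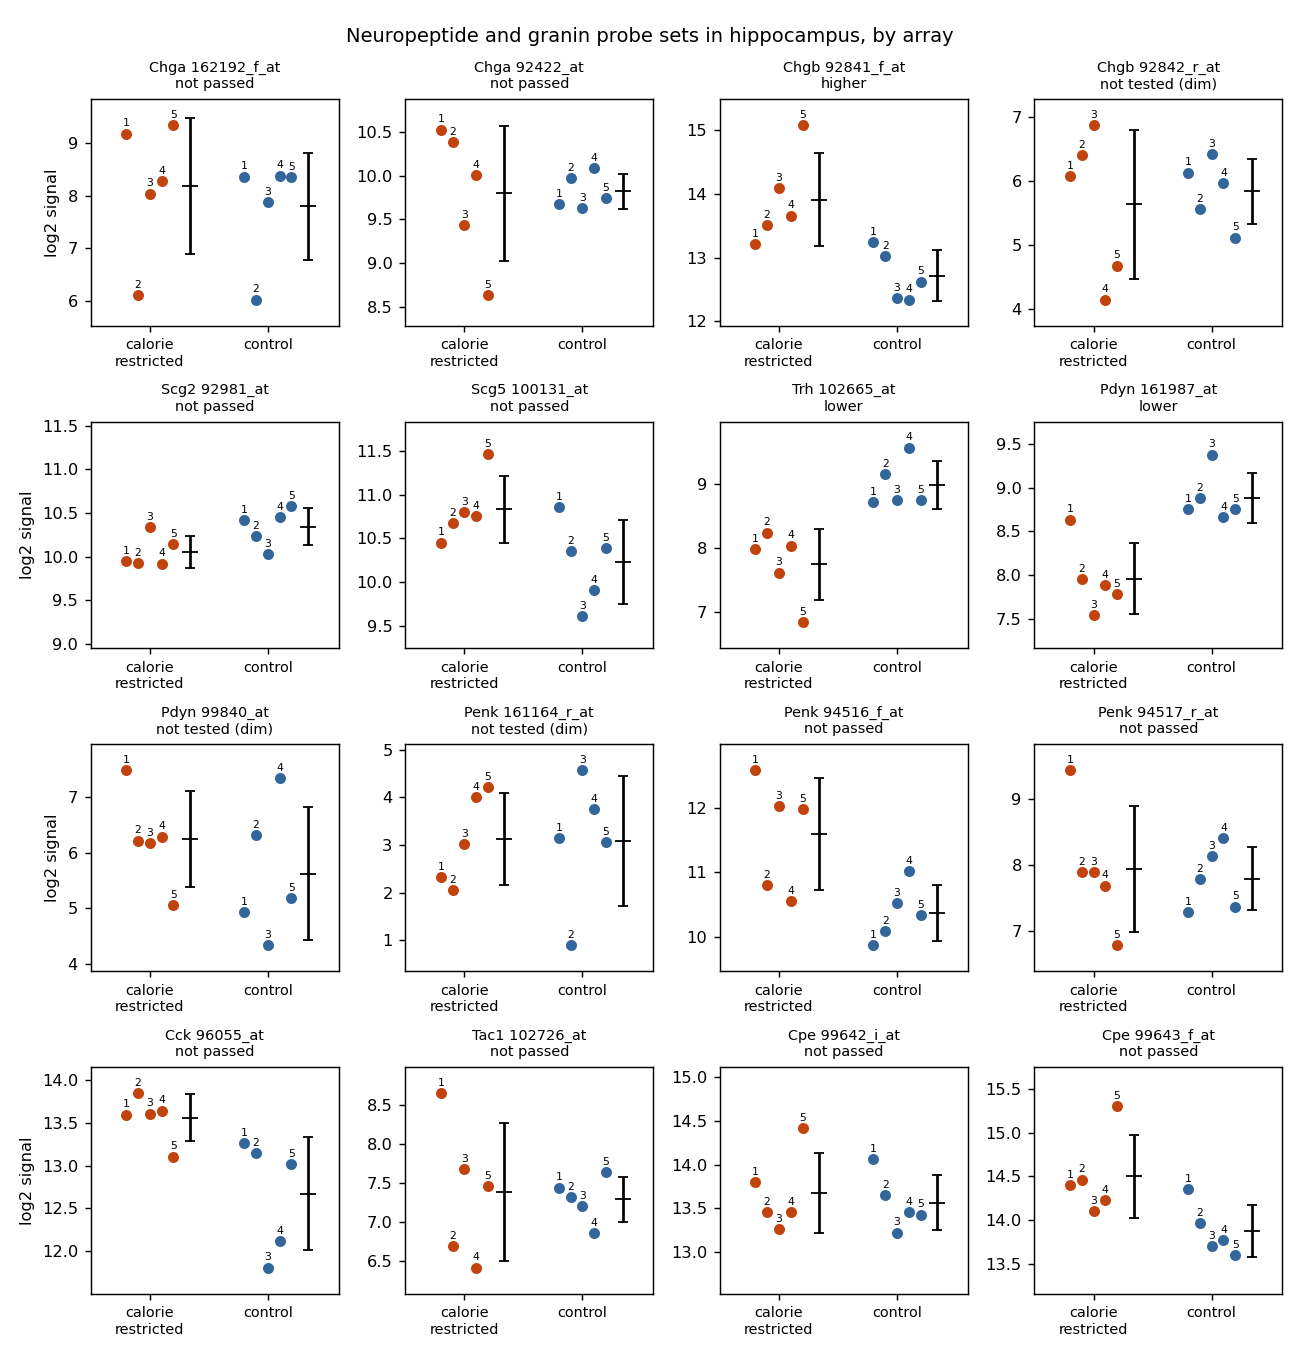
Log2 signal of all 16 member probe sets on each array, with calorie restricted mice on the left and control mice on the right of each panel; numbers are replicates and bars show the mean ± SD (n = 5). Only Trh 102665_at and Pdyn 161987_at, among the tested probe sets, have groups that do not overlap, while Chgb 92841_f_at overlaps by 1 array.

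Array quality differed between the diets. The log2 difference between 3' and 5' control probe sets of Gapdh and Actb, which grows when RNA is broken or incompletely copied, was 2.88 ± 2.57 in calorie restricted mice, against 0.16 ± 0.24 in control mice (SD over 5 mice each; exact two-sided permutation p = 0.00794, the smallest the design allows, adjusted p = 0.00794 over 3 measures). It was 5.20 and 6.11 in calorie restricted replicates 3 and 5, and 0.78 to 1.52 in replicates 1, 2 and 4. Spike-in signal was also higher in calorie restricted mice, at 12.41 to 13.67 log2 against 10.50 to 11.80 in control mice, and the median log2 signal was lower, at 7.25 to 7.69 against 7.79 to 7.92 in control mice, both without overlap (exact permutation p = 0.00794 each). Changes also followed brightness: the median change was -0.30 over the 1490 probe sets with a mean log2 signal of 7.71 to 8.50, where 11.3% fell, and 0.13 over the 1491 above 10.23, where 11.1% rose. The part of these differences in the members' changes was not tested, and each member's change is given with and without replicates 3 and 5.

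Among the granins, Chgb, which encodes a core protein of dense-core vesicles, rose. Its probe set 92841_f_at had log2 signals of 13.21, 13.50, 14.10, 13.66 and 15.09 in calorie restricted replicates 1 to 5, against 13.25, 13.02, 12.36, 12.34 and 12.62 in control replicates 1 to 5. Only calorie restricted replicate 1 lay within the control range, and replicate 5, with the poorest RNA, was the highest array. The change was 1.19 ± 0.33 (SE, n = 5 per diet; limma adjusted p = 0.0368), or 2.29-fold, and 1.35 relative to the median. That median is the one of all tested probe sets. The probe set lies among the bright ones, whose median change was 0.13 and in which 11.1% rose. The f in its name marks probes that can match several transcripts of a family. Without calorie restricted replicates 3 and 5 the change was 0.74 and did not pass (limma adjusted p = 0.0536), nor did it with an RNA quality covariate, at 0.47, or under quantile normalization, at 0.74 (limma adjusted p = 0.295 and 0.0947). It also missed the threshold without any 1 of calorie restricted replicates 3 and 4 or control replicates 2 to 5, with limma adjusted p up to 0.0896 in the fits that leave out 1 array. The other probe set of Chgb, 92842_r_at, was too dim to be tested, with 5.64 ± 1.16 in calorie restricted mice, against 5.84 ± 0.51 in control mice (SD over 5 mice each).

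Scg2, the secretogranin that is the source of secretoneurin, varied least among calorie restricted mice of the granins, with an SD of 0.18. It had 9.95, 9.93, 10.34, 9.92 and 10.15 in calorie restricted replicates 1 to 5, against 10.42, 10.24, 10.03, 10.45 and 10.58 in control replicates 1 to 5. Calorie restricted replicates 1, 2 and 4 were below every control, and replicates 3 and 5 lay inside the control range. The change of -0.29 ± 0.16 (SE) did not pass (limma adjusted p = 0.252), and -0.13 relative to the median is within 1 SE of no change. Without calorie restricted replicates 3 and 5 it was -0.41 (limma adjusted p = 0.104). Within each array, the log2 ratio of Chgb to Scg2 was 3.26 to 4.94 in calorie restricted mice and 1.89 to 2.83 in control mice, with means of 3.86 ± 0.64 in calorie restricted and 2.37 ± 0.42 in the controls (SD over 5 mice each). These ranges do not overlap. The ratio was picked after the values of its members were seen and is given with no test. Because both signals come from 1 array, a common scaling of that array cancels in it. Differences that follow brightness or RNA quality need not cancel. Chgb lies where the median change was 0.13 and Scg2 where it was -0.07. The highest ratio was that of calorie restricted replicate 5, with the poorest RNA.

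Chga, the source of vasostatins and catestatin, was read by probe sets that gave no stable direction. For 92422_at the signals were 10.53, 10.39, 9.44, 10.01 and 8.63 in calorie restricted replicates 1 to 5, against 9.68, 9.97, 9.63, 10.09 and 9.74 in control replicates 1 to 5. The lowest 2 arrays of all 10 were calorie restricted replicates 5 and 3, the ones with the poorest RNA, and the highest 2 were calorie restricted replicates 1 and 2. The change was -0.02 ± 0.32 (SE) over all arrays, 0.49 ± 0.17 without replicates 3 and 5 and 0.76 ± 0.21 with an RNA quality covariate, and none of these passed (limma adjusted p = 0.969, 0.0908 and 0.0555). The direction was thus positive in both fits that treat RNA quality, and also with each array centred on its median, at 0.19, and under quantile normalization, at 0.08. The other probe set, 162192_f_at, ranged from 6.10 to 9.34 in calorie restricted and from 6.02 to 8.38 in control mice, with a change of 0.39 ± 0.62 (SE; limma adjusted p = 0.689) that was 0.053 without replicates 3 and 5.

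Scg5 encodes the chaperone of the convertase that cuts many peptide precursors. Its signals were 10.45, 10.67, 10.80, 10.76 and 11.47 in calorie restricted replicates 1 to 5, against 10.86, 10.36, 9.61, 9.91 and 10.39 in control replicates 1 to 5. Replicate 5 was again the highest calorie restricted array, and control replicate 1 stood above all calorie restricted arrays but that one. The change of 0.61 ± 0.26 (SE) had an unadjusted p of 0.0348 but did not pass (limma adjusted p = 0.128). It was 0.40 without replicates 3 and 5 (limma adjusted p = 0.302).

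Of the opioid precursors, Pdyn, the source of dynorphins, which act at the kappa receptor, fell. Its probe set 161987_at had 8.64, 7.96, 7.54, 7.88 and 7.78 in calorie restricted replicates 1 to 5, against 8.76, 8.89, 9.38, 8.66 and 8.75 in control replicates 1 to 5. All 5 calorie restricted arrays were below all 5 controls, though replicate 1 came within 0.1 of the lowest control. Probe sets of similar brightness had a median change of -0.30. The change was -0.93 ± 0.24 (SE, n = 5 per diet; limma adjusted p = 0.0307), a 1.90-fold lower signal, and -0.77 relative to the median. It was -0.73 without calorie restricted replicates 3 and 5, -0.62 with an RNA quality covariate, -0.66 under quantile normalization and -0.71 with arrays centred on their median, and passed in none of these (limma adjusted p = 0.0752, 0.191, 0.0856 and 0.0615). The call was also lost without any 1 of calorie restricted replicates 3 and 4 and control replicates 1 to 5, with limma adjusted p from 0.0505 to 0.0789. The other probe set of Pdyn, 99840_at, was too dim to be tested and pointed the other way, with 6.24 ± 0.86 in calorie restricted mice, against 5.62 ± 1.20 in control mice (SD over 5 mice each).

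Penk, the source of enkephalins, did not pass. Its probe set 94516_f_at had 12.58, 10.81, 12.03, 10.55 and 11.98 in calorie restricted replicates 1 to 5, against 9.88, 10.10, 10.52, 11.02 and 10.34 in control replicates 1 to 5. Replicates 1, 3 and 5 stood well above every control, while replicates 2 and 4 lay inside the control range, so the calorie restricted mice were split. Replicate 1, with an RNA quality measure of 0.79, was the highest array, followed by replicates 3 and 5. The change was 1.22 ± 0.37 (SE; limma adjusted p = 0.0511), just short of the threshold, with an unadjusted p of 0.00631. It passed without calorie restricted replicate 2 or 4, the 2 lowest of that diet, at 1.42 and 1.48 (limma adjusted p = 0.0294 and 0.0305). It also passed with arrays centred on their median, at 1.44 (limma adjusted p = 0.0347). It did not pass without any other single array (limma adjusted p up to 0.115). Without replicates 3 and 5 the change was 0.94 and did not pass (limma adjusted p = 0.149). Nor did it pass with an RNA quality covariate, at 0.92, or under quantile normalization, at 1.10 (limma adjusted p = 0.236 and 0.0701). The second tested probe set, 94517_r_at, had 6.79 to 9.43 in calorie restricted and 7.28 to 8.40 in control mice, with a change of 0.15 ± 0.42 (SE; limma adjusted p = 0.834); here too replicate 1 was the highest array. Without replicates 3 and 5 that change was 0.55 (limma adjusted p = 0.408). A probe set left untested, 161164_r_at, was at 3.12 ± 0.97 and 3.09 ± 1.36 in calorie restricted and control mice (SD over 5 mice each).

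The log2 ratio of Penk 94516_f_at to Pdyn 161987_at within an array was 3.95, 2.85, 4.49, 2.67 and 4.20 in calorie restricted replicates 1 to 5, against 1.12, 1.21, 1.14, 2.36 and 1.59 in control replicates 1 to 5. The lowest calorie restricted array was above the highest control array, with means of 3.63 ± 0.82 in calorie restricted and 1.48 ± 0.52 in the controls (SD over 5 mice each). This ratio was likewise picked after the values were seen and carries no test. With the other tested Penk probe set, 94517_r_at, the ratio to Pdyn 161987_at overlapped between the diets. Calorie restricted replicate 5 had 6.79 for that Penk probe set and 7.78 for Pdyn, against 8.40 and 8.66 in control replicate 4. Penk 94516_f_at lies where the median change was 0.13 and Pdyn 161987_at where it was -0.30, a difference that does not cancel in the ratio.

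**Figure D2:**
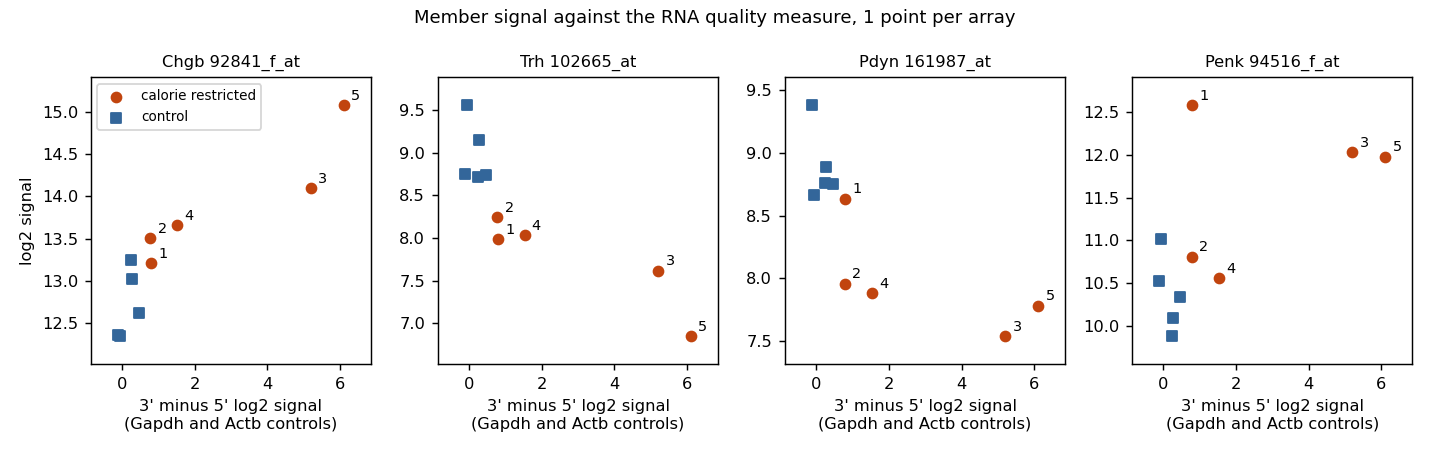
Log2 signal of Chgb, Trh, Pdyn and Penk on each array against the log2 difference between 3' and 5' control probe sets, with calorie restricted arrays as numbered circles and control arrays as squares. Calorie restricted replicates 3 and 5, at 5.20 and 6.11, hold the 2 highest Chgb and the 2 lowest Trh and Pdyn signals. The highest Penk signal is that of replicate 1, at 0.79, followed by those of replicates 3 and 5.

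Among the other peptide precursors Trh fell. Trh encodes the precursor of thyrotropin-releasing hormone, known above all for driving the pituitary from the hypothalamus and also made elsewhere in the brain. Its probe set 102665_at had 7.99, 8.24, 7.62, 8.04 and 6.84 in calorie restricted replicates 1 to 5, against 8.72, 9.16, 8.75, 9.57 and 8.75 in control replicates 1 to 5. All calorie restricted arrays lay below all controls, and replicate 5 was the lowest. Probe sets of similar brightness had a median change of -0.30. The change was -1.24 ± 0.29 (SE, n = 5 per diet; limma adjusted p = 0.0217), a 2.37-fold lower signal, and -1.09 relative to the median. Of the 3 member calls it was the one that also passed without replicates 3 and 5, at -0.90 (limma adjusted p = 0.0345), under quantile normalization, at -0.95 (limma adjusted p = 0.0393), and with arrays centred on their median, at -1.03 (limma adjusted p = 0.0329). With RNA quality as a covariate it was -0.70 and did not pass (limma adjusted p = 0.157), nor did it without calorie restricted replicate 3 or control replicates 2 or 4 (limma adjusted p = 0.0504, 0.0582 and 0.0577).

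Cck, the cholecystokinin precursor, was bright and did not pass. It had 13.60, 13.85, 13.61, 13.65 and 13.11 in calorie restricted replicates 1 to 5, against 13.26, 13.15, 11.81, 12.12 and 13.01 in control replicates 1 to 5. Replicates 1 to 4 were above every control, and replicate 5 was the only one inside the control range. Among the controls, replicates 3 and 4 were lower than the others by about 1. The change was 0.89 ± 0.29 (SE; limma adjusted p = 0.0613). It was 1.03 without replicates 3 and 5 and 1.05 with an RNA quality covariate (limma adjusted p = 0.0570 and 0.0974), and 1.11 with arrays centred on their median, where it passed (limma adjusted p = 0.0300), as it did without calorie restricted replicate 5, the lowest of that diet, at 1.01 (limma adjusted p = 0.0418). No other fit with 1 array left out passed. Without control replicate 3 or 4 the change was 0.68 and 0.75 (limma adjusted p = 0.128 and 0.140). Under quantile normalization it was 0.47 and did not pass (limma adjusted p = 0.316).

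Tac1, the source of substance P and neurokinin A, was dim. It ranged from 6.41 to 8.65 in calorie restricted mice, where the highest array was replicate 1, and from 6.86 to 7.64 in control mice. The change was 0.09 ± 0.40 (SE; limma adjusted p = 0.897). Leaving out replicates 3 and 5 turned it to -0.038. The SD of 0.88 in calorie restricted mice was about 3 times the 0.29 in control mice, and the control range lay inside the calorie restricted one.

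Cpe, the carboxypeptidase that finishes most peptides of this family, was bright, and its probe sets gave different sizes of change. For 99643_f_at the signals were 14.40, 14.46, 14.10, 14.23 and 15.31 in calorie restricted replicates 1 to 5, against 14.35, 13.96, 13.70, 13.77 and 13.60 in control replicates 1 to 5. Calorie restricted replicate 5 was the highest array, and control replicate 1 was the only control above the lowest calorie restricted array. The change of 0.62 ± 0.24 (SE) did not pass (limma adjusted p = 0.102), was 0.49 without replicates 3 and 5 (limma adjusted p = 0.0988) and turned to -0.036 under quantile normalization. For 99642_i_at the range was 13.26 to 14.42 in calorie restricted and 13.22 to 14.06 in control mice, with a change of 0.11 ± 0.24 (SE; limma adjusted p = 0.766) that was 0.0062 without replicates 3 and 5 and turned to -0.42 under quantile normalization.

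**Figure D3:**
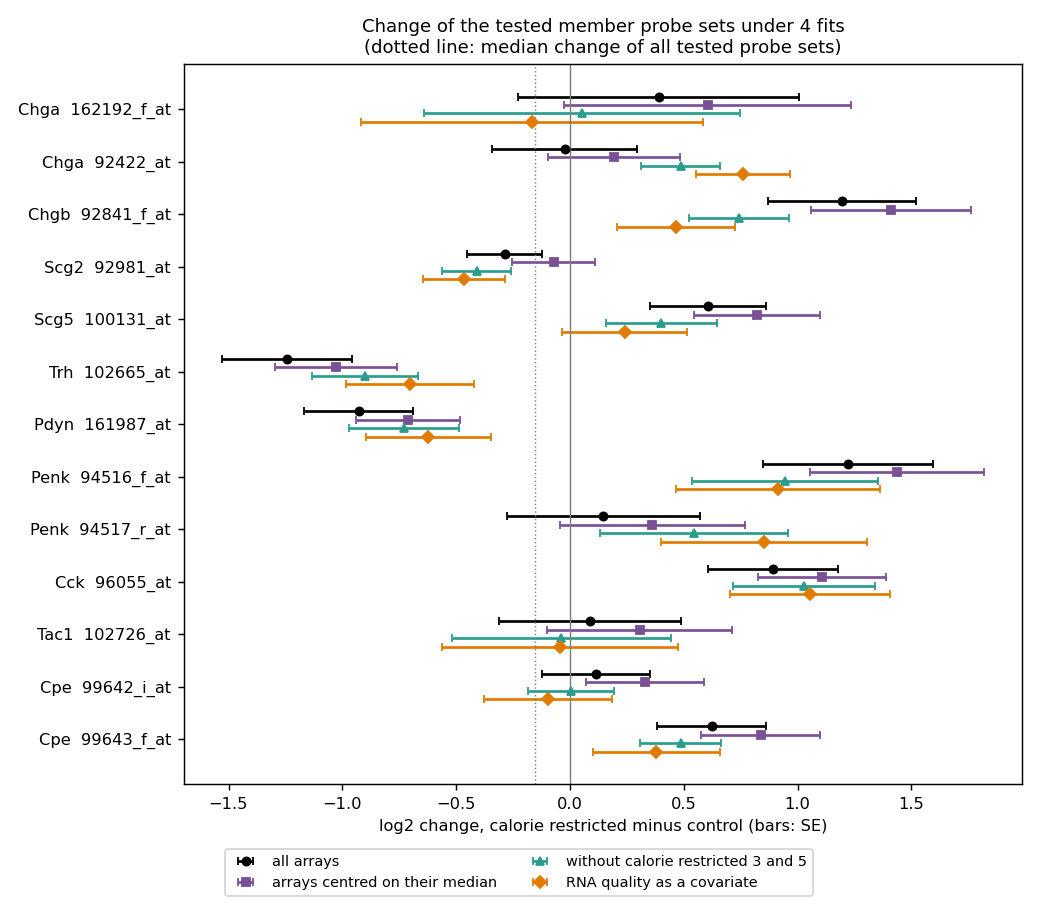
Log2 change of the 13 tested member probe sets, calorie restricted minus control, with SE bars, from all arrays, from arrays centred on their median, without calorie restricted replicates 3 and 5, and with an RNA quality covariate. Trh and Pdyn stay below 0 and Chgb, Penk 94516_f_at and Cck above 0 in all 4 fits; Chgb is at 1.19 over all arrays and 0.47 with that covariate, and Chga 92422_at is at -0.02 and 0.76.

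**Figure D4:**
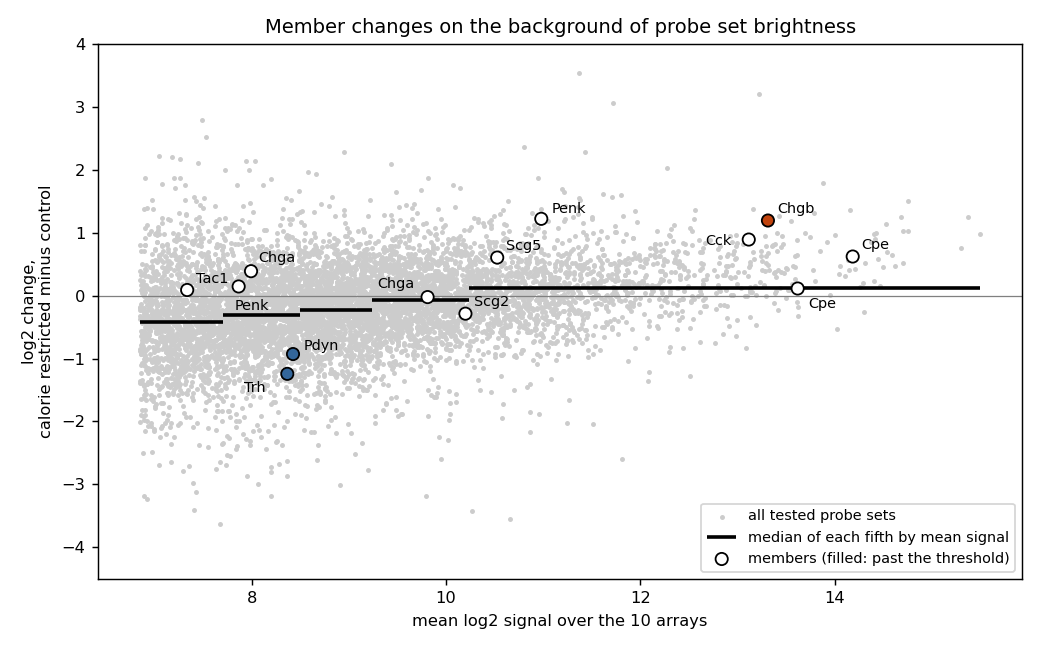
Log2 change against mean log2 signal for all 7453 tested probe sets, with the median change in 5 equal classes of signal as black bars and the member probe sets as labelled circles, filled where past the threshold. Trh and Pdyn lie where the median change is -0.30, and Chgb lies where it is 0.13.

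The other genes of the neuropeptide system, taken from lists of precursors, vesicle proteins, enzymes and receptors, gave 9 calls among 50 tested, 1 higher and 8 lower. Each gene was read by its highest probe set in mean signal; of all 5695 genes so read, 10.5% passed, 4.09% higher and 6.44% lower, with a median change of -0.12. Of 13 other precursors tested, 1 rose and 3 fell, with a median change of -0.12. Npy, an inhibitory peptide of interneurons, had 11.92, 11.55, 12.37, 11.78 and 12.07 in calorie restricted replicates 1 to 5, against 10.31, 10.79, 10.02, 10.54 and 10.89 in control replicates 1 to 5. All calorie restricted arrays lay above all controls. The change was 1.43 ± 0.21 (SE; limma adjusted p = 0.00600), and Npy also passed with an RNA quality covariate, at 1.15 (limma adjusted p = 0.0224). The 3 that fell were the vasoactive peptide precursor Apln at -0.82 ± 0.19, galanin, Gal, at -0.76 ± 0.20 and Gnrh1, the precursor of gonadotropin-releasing hormone, at -0.86 ± 0.24 (SE; limma adjusted p = 0.0210, 0.0342 and 0.0413). Under quantile normalization Gal and Gnrh1 had -0.53 each and missed the threshold (limma adjusted p = 0.0868 and 0.172). With the RNA quality covariate all 3 missed it (limma adjusted p = 0.116 for Apln, 0.182 for Gal and 0.0725 for Gnrh1).

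None of 9 other granins and dense-core vesicle proteins passed by limma (0 had an unadjusted p under 0.05), with a median change of -0.16. The 2 with the smallest p were Cadps, a priming factor for vesicle release, at 0.52 ± 0.29 and the vesicle synaptotagmin Syt4 at -0.45 ± 0.25 (SE; limma adjusted p = 0.232 and 0.243). The other probe set of Cadps pointed the other way, at -0.39. None of 12 processing enzymes other than Cpe passed in limma either, with a median of -0.13. The 2 with the smallest p, also the 2 at an unadjusted p under 0.05, were the convertases Pcsk4 at 0.92 ± 0.37 and Pcsk6 at -1.37 ± 0.57 (SE; limma adjusted p = 0.114 and 0.124). Pcsk6 was at 5.81 and 5.69 in calorie restricted replicates 3 and 5, against 8.22, 8.79 and 8.35 in replicates 1, 2 and 4 and a mean of 8.74 in control mice. Of the processing enzymes, Cpd had another probe set, 160655_at, that passed at -1.74 (limma adjusted p = 0.00755), chosen here after its value was seen.

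Of 6 peptide-degrading enzymes 0 rose and 2 fell, with a median of -0.65: Enpep, which cleaves angiotensin peptides, at -0.78 ± 0.17 and the angiotensin-converting enzyme Ace at -0.99 ± 0.28 (SE; limma adjusted p = 0.0195 and 0.0432). Both had groups that did not overlap and both passed without replicates 3 and 5 (limma adjusted p = 0.0229 and 0.0390). With arrays centred on their median neither passed (limma adjusted p = 0.0624 and 0.0886). Only 3 genes on the list of receptors of the member peptides were bright enough to be tested, and none passed by limma (1, Oprl1, had an unadjusted p under 0.05). Oprl1, the nociceptin receptor, was listed with the opioid receptors, though no member encodes nociceptin. It had -1.40 ± 0.60, the brain cholecystokinin receptor Cckbr -0.39 ± 0.23 and the neurokinin receptor Tacr2 0.05 ± 0.52 (SE; limma adjusted p = 0.133, 0.270 and 0.958). Oprl1 was at 4.76 in calorie restricted replicate 5, against 7.81 to 8.69 in replicates 1 to 4 and 8.82 to 9.11 in control mice.

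Of 7 receptors of other peptides 0 rose and 3 fell, with a median of -0.95. Adcyap1r1, a receptor of the peptide PACAP, had -2.65 ± 0.60, the galanin receptor Galr1 -1.60 ± 0.30 and the somatostatin receptor Sstr4 -0.95 ± 0.21 (SE; limma adjusted p = 0.0210, 0.0108 and 0.0205). All 3 passed under quantile normalization, with arrays centred on their median and without replicates 3 and 5, and Galr1 alone of them passed with the RNA quality covariate (limma adjusted p = 0.0439). For Adcyap1r1 and Galr1 the mean in calorie restricted mice, 5.84 and 6.19, lay below 6.85, the lowest mean signal tested, so the size of their fall is uncertain.

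**Figure D5:**
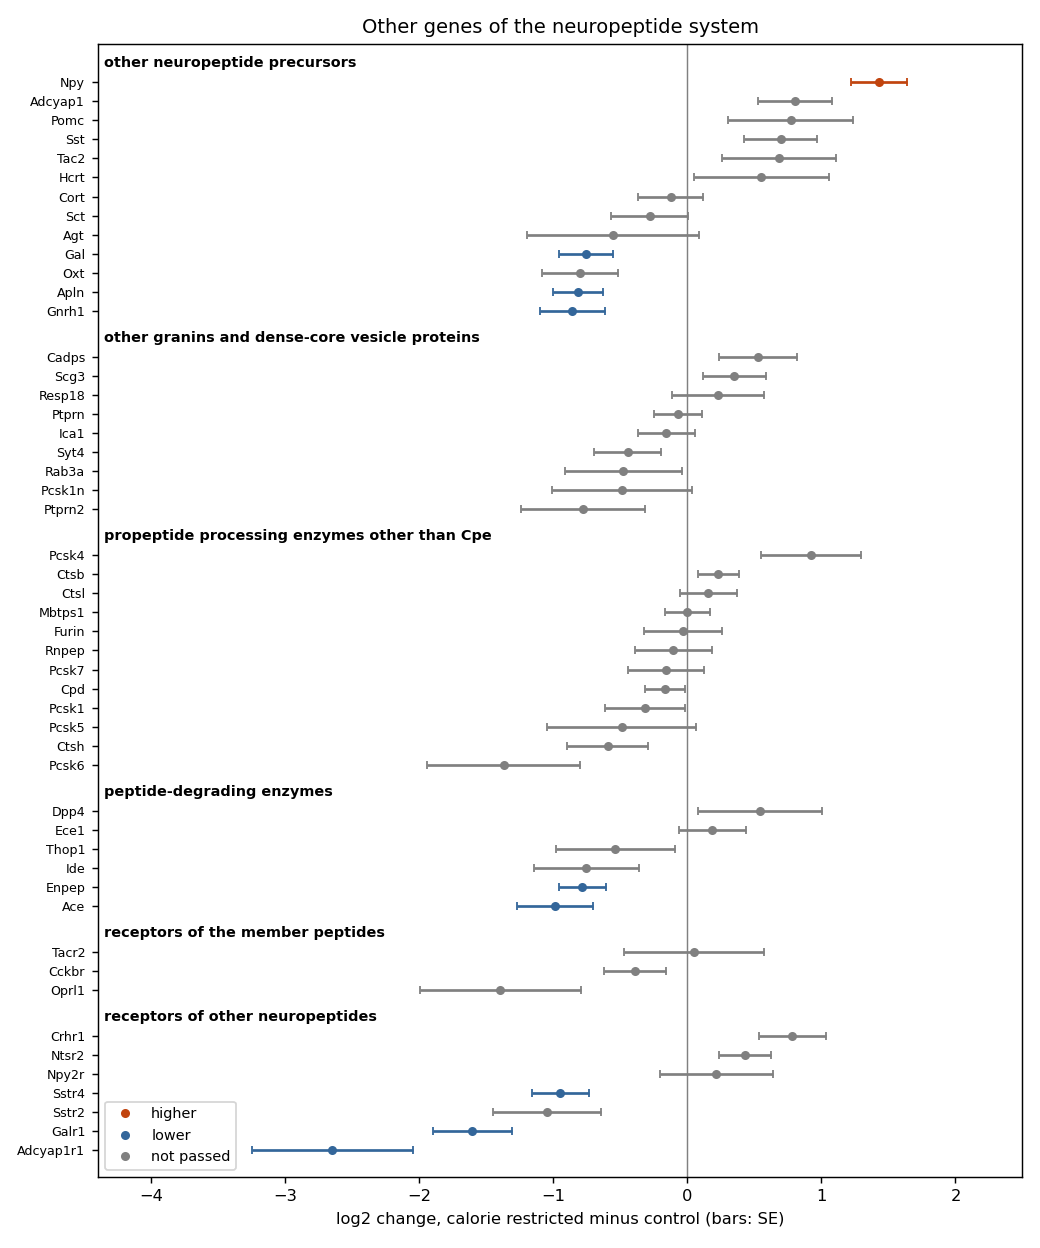
Log2 change with SE bars, calorie restricted minus control, for every tested gene of the 6 other lists, each by its highest probe set in mean signal. Npy stands to the right at 1.43, and the 8 genes that fell, in blue, are precursors, peptide-degrading enzymes and receptors, from -0.76 for Gal to -2.65 for Adcyap1r1.

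Some markers of cell types that make these peptides also differed between the diets. Of 8 tested interneuron genes, with Npy among them, 3 rose, Npy, Slc32a1 at 0.90 and Pvalb at 0.64, and 0 fell. Of the 5 that did not pass, Sst at 0.69 and Gad1 at 0.08 were above 0 and Calb2 at -0.60, Reln at -0.57 and Lhx6 at -0.23 below. Npy, Slc32a1, Pvalb, Sst and Gad1 were among the probe sets with a mean log2 signal above 10.23, where 11.1% rose. Calb2, Reln and Lhx6 were dimmer, as were the pyramidal neuron genes that fell. The summed signal of all 8 interneuron genes, to which the bright ones add most, was 23442 to 29872 in calorie restricted and 15096 to 21138 in control mice. Of 7 pyramidal neuron genes 0 rose and 4 fell, Nptx1 at -1.89, Neurod6 at -1.26, Homer3 at -1.05 and Bok at -0.95, with sums of 3457 to 5182 in calorie restricted and 6216 to 9299 in control mice. Of 3 dentate granule genes none passed by limma (0 had an unadjusted p under 0.05), with sums of 1438 to 3861 and 1882 to 2434 in calorie restricted and control mice. Markers too dim for the filter were not tested, and the part of these lists in the members' changes was not tested.

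Markers of neighbouring regions and of other cells were read the same way. Of 5 hypothalamic genes 1 fell, Gal, with sums of 3126 to 5832 in calorie restricted and 3914 to 5704 in control mice; of 7 thalamic and habenular genes 1 fell, Tcf7l2 at -0.74, with sums of 3167 to 5062 and 4459 to 5796. For the striatum, where Penk, Tac1 and Pdyn are abundant, 2 of 9 listed genes were on the array and only Drd2 was tested, at 135 to 275 in calorie restricted and 152 to 252 in control mice, and it did not pass. Choroid plexus genes fell in 2 of 4, Folr1 at -1.51 and Foxj1 at -0.997, with sums of 912 to 15353 and 3242 to 11575. Of 12 pan-neuronal genes 1 rose, Thy1 at 0.64, and 4 fell, Syt1 at -3.55, Map2 at -2.98, Elavl2 at -1.88 and Nefl at -1.17. Most of the 7 that did not pass were above 0. Syt1 and Map2 had SDs of 1.96 and 2.34 in calorie restricted mice, against 0.14 and 0.25 in control mice. The size of their fall is therefore uncertain, and marker changes are given here over all arrays only. Of 9 astrocyte genes 4 fell, Atp1b2 at -2.28, Fgfr3 at -2.11, Aqp4 at -1.55 and Slc4a4 at -1.34, and 0 rose. Of 7 oligodendrocyte genes 3 fell, Ugt8a at -1.86, Cldn11 at -0.80 and Mal at -0.63, and of 9 microglial genes 2 fell, Cx3cr1 at -1.10 and Cd68 at -0.86, with 0 that rose in either list. The sums of these 4 lists, in the order given, were 54158 to 64485, 22870 to 29139, 19298 to 27484 and 9062 to 12144 in calorie restricted mice, against 42428 to 57690, 17389 to 22832, 23366 to 25798 and 10249 to 14161 in control mice. Atp1b2, Fgfr3, Ugt8a and Map2 had means of 6.80, 5.94, 6.16 and 5.90 in calorie restricted mice. These lie below 6.85, the lowest mean signal tested, so the size of their fall is uncertain.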

How the data were processed

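Hippocampal RNA of 10 mice was measured on 10 Affymetrix arrays. The deposited intensity values are linear MAS5 signals computed by the authors, per the submitters' processing notes; version, settings, detection calls and genome build: not given in the sources used here. The mean without the lowest and highest 2% was 500.2 to 500.4 on each array. Values under 1 (41 of 124880) were set to 1 and taken to log2. The 66 control probe sets served as quality measures. Of the other 12422, those with a mean log2 signal under the 40th percentile were left out, leaving 7453. Symbols came from the platform annotation, which gives 1 symbol for 10833, updated through RefSeq for 10817.

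The test was limma 3.58.1 in R 4.3.3 (lmFit, eBayes with trend), run on all 10 arrays, with Benjamini-Hochberg adjustment over 7453. Array measures were tested with an exact permutation test over 252 splits. The members and lists were chosen with earlier results of these data known. All member genes are named; of the other lists of the neuropeptide system, the genes past the threshold or, with none, the 2 with the smallest p; of the marker lists, the genes past the threshold. Tacr2, Drd2 and the interneuron genes that did not pass were named after their values were seen. Of the alternatives, 21 settings were run. The number of arrays limits precision. The limma p-values weigh each change against the spread between arrays of a diet, with 1 mouse per array. That spread does not separate differences between mice from those in RNA or array quality. Tested on data simulated for this contrast (7453 probe sets), limma recovered 2%, 52%, 84% and 88% of 50 probe sets each changed by 0.5, 1, 2 and 3 (log2), with 4 false among 117 calls.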

Additional observations from a re-analysis of the deposited data

Results flagged for a closer look

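Among 32 sets of 5 signals (16 member probe sets in each diet), 1 stood apart by Dixon's test. Chga 162192_f_at had a log2 signal of 6.02 in control replicate 2, against 7.87 to 8.38 in the other 4 control mice. Calorie restricted replicate 2 was also low in this probe set and was not flagged, at 6.10 against 8.04 to 9.34 in the other 4 calorie restricted mice. Chance flags about 1 in 20 such groups. Without control replicate 2 the change of this probe set was -0.055, and it passed neither with nor without that array.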

How the results depend on the processing

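The count of probe sets past the threshold was 883, and 333 with an RNA quality covariate, 540 with a replicate block and 1627 at an adjusted p under 0.10; with 1 array left out it ran from 253 to 1251, with 349 when calorie restricted replicate 3 was dropped, 561 for its replicate 4, and 421, 253, 274, 301 and 553 when each of control replicates 1 to 5 was. Of member probe sets 3 passed, and 1 under quantile normalization, 1 without calorie restricted replicates 3 and 5, 1 with the replicate block and 5 at an adjusted p under 0.10. With RNA quality as a covariate limma passed 0 (5 had an unadjusted p under 0.05). With 1 array left out 0 to 4 passed, 0 without calorie restricted replicate 3 or control replicate 2 or 4 (limma; 6, 7 and 6 had an unadjusted p under 0.05) and 1 without control replicate 3 or 5. Of the other genes of the neuropeptide system 9 passed, and 5 with a filter at the 60th percentile (27 of them tested), with an RNA quality covariate or with the replicate block; 2 to 12 passed with 1 array left out, and 2, 3 and 3 without control replicates 2, 3 and 4. Deviations of same-numbered mice correlated weakly, at -0.08, 0.05, -0.06, 0.02 and 0.17 for replicates 1 to 5. Only for replicate 5 was the same-numbered mouse the one with the highest correlation. Under the block Chgb and Pdyn missed the threshold (limma adjusted p = 0.0632 and 0.0665).

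Chgb, Trh, Pdyn, Penk 94516_f_at, Cck, Scg2 and Scg5 kept their direction in all 21 alternatives. Not all of these could turn a direction. Alternatives that altered only the filter, the trend, the replicate block or the threshold left each fitted change as it was. Fits with 1 array left out share most of their arrays and are not independent of each other. Directions turned for values that had not passed. Chga 92422_at turned to 0.082 under quantile normalization, 0.19 with centred arrays, 0.27 with array weights, 0.76 with an RNA quality covariate and 0.49 without replicates 3 and 5, and lay between -0.21 and 0.27 with 1 array left out, turning without calorie restricted replicate 3 (0.07) or 5 (0.27) and control replicate 2 (0.01) or 4 (0.04). Chga averaged over its probe sets had 0.18, and Chga 162192_f_at had -0.17 with an RNA quality covariate and -0.055 to 0.91 with 1 array left out, turning without control replicate 2. Cpe 99642_i_at turned to -0.42 under quantile normalization, -0.039 with array weights and -0.10 with an RNA quality covariate, and ran from -0.072 to 0.24 with 1 array left out, turning without calorie restricted replicate 5; Cpe 99643_f_at turned to -0.036 under quantile normalization. Tac1 had -0.044 with an RNA quality covariate, -0.038 without replicates 3 and 5, and -0.23 to 0.33 with 1 array left out, turning without calorie restricted replicate 1 or control replicate 4. Penk 94517_r_at had -0.23 to 0.43 with 1 array left out, turning without calorie restricted replicate 1. With RNA quality as a covariate Cadps had -0.12 and Pcsk6 had 0.17. The causes were not tested. Averaged over all their probe sets, Chgb had 0.50 and Pdyn -0.15, and neither passed (limma adjusted p = 0.228 and 0.806). These averages include Chgb 92842_r_at and Pdyn 99840_at, which were too dim to be tested and cannot be told from background.

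With 1 array left out, the difference in the 3' to 5' measure ran from 1.92 to 3.25 and missed the threshold without control replicate 1, 2, 3 or 4 (exact permutation p up to 0.0635); the spike-in difference ran from 1.77 to 2.09 and that of the median signal from -0.40 to -0.29. MAS5 detection calls were not analysed here, so signals of dim probe sets, Tac1 and the 3 untested ones among them, cannot be told from background.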
